A study of Mus musculus with 24 samples.

Results

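The p53 target genes examined in differentiating 3T3-L1 cells were Cdkn1a, Mdm2, Ccng1, Bax, Trp53inp1, Gdf15, Sesn2, Btg2, Bbc3 and Phlda3. They were chosen by name as well-known targets of the transcription factor p53, and make up 10 of the 26995 gene symbols in the deposited count tables. A gene can have several annotated 3′UTR entries, and each gene was read from the entry with the highest mean total read count over all libraries. All 10 genes passed the filter on low counts in total reads, and 9 passed it in labelled reads, where Bax did not.

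3T3-L1 is an established mouse embryonic fibroblast line that turns into adipocytes under a hormonal cocktail, so every sample came from a single line. Cells were harvested at day -2, before induction, and at days 1, 3 and 7 after the addition of dexamethasone, 3-isobutyl-1-methylxanthine and insulin, with a switch to insulin alone at day 3. Control cells received DMSO, and treated cells received 0.5 µM ML-792, an inhibitor of the SUMO E1 enzyme that blocks the attachment of SUMO proteins to their substrates. The start of the exposure in these cultures was not given in the sources used here. All cultures of both groups were also exposed to 100 µM 4-thiouridine for 45 min before lysis, which marks newly made RNA. There were 3 biological replicates, lettered A, B and C, in each of the 8 conditions, 24 libraries in all. QuantSeq counted all reads at the 3′ end of each transcript (total reads, the RNA pool), and SLAMseq counted the reads of the same libraries that carry at least 1 T-to-C conversion (labelled reads, RNA made during the pulse together with conversions of other origin).

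The protein p53 is held low in unstressed cells by Mdm2, a ubiquitin ligase that is itself a p53 target and so closes a negative feedback loop. DNA damage, nucleolar stress and other insults stabilise p53, which then binds response elements made of a pair of adjacent decamers and raises transcription nearby. Its targets act in cell cycle arrest, apoptosis, metabolism and in the control of p53 itself. Both p53 and Mdm2 are known substrates of SUMO. In adipogenesis, Cdkn1a is best known as the cyclin-dependent kinase inhibitor p21, which accompanies the exit from the mitotic clonal expansion that follows induction.

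The region within 2500 bases of each RefSeq start in GRCm38.p6 was searched for matches to the p53 response element. This was taken as adjacent copies of the p53 consensus decamer with at most 1 of 20 bases off. The consensus is its own reverse complement, so that both strands were covered. Of the 9 genes in the RefSeq promoter table, 4 had such an element, against 459 of 27025 genes in all (1.7%). Trp53inp1 was not in that table. The matches are printed 5′ to 3′ on the gene's strand with the element in capitals and 5 bases on each side. Sites farther away or further from the consensus were not searched, so p53 may act on these genes through others.
Cdkn1a, chr17:29090928-29090947 (+), outside the gene, first base at position -51 from one start and -2841 from another: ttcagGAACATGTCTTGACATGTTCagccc
Mdm2, chr10:117711670-117711689 (-), outside the gene, first base at position -931: gaactGGGCAATTCCGGGCAAGTCCgggcc
Ccng1, chr11:40755462-40755481 (-), outside the gene, first base at position -195: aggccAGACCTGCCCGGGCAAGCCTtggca
Ccng1, chr11:40754936-40754955 (-), intron, first base at position 331: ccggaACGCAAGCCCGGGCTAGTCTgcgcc
Gdf15, chr8:70631966-70631985 (-), exon, first base at position 110: aggggTGACTTGCCTGAACTTGCCTtttct
A match is a description of letters, and no binding of p53 was measured here. No element of this kind was found in the same window of Bax, Sesn2, Btg2, Bbc3 and Phlda3, which says only that these letters are absent from it.

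Counts came from 3′UTR entries in mm10 coordinates, from chr8:70629393-70629542 on the minus strand for Gdf15 (150 bases) to chr4:11169710-11174377 on the plus strand for Trp53inp1 (4668 bases). Those of Cdkn1a (chr17:29099394-29100722, plus), Mdm2 (chr10:117688875-117690209, minus) and Btg2 (chr1:134074865-134077368, minus) lie between these lengths, and no entry of the 10 genes overlapped an entry of another gene. Libraries held 13554718 to 27013352 total reads and 115709 to 820046 labelled reads. Labelled reads made up 3.17 ± 0.485% of total reads in DMSO at day -2 and 1.03 ± 0.0869% at day 7 (SD, n = 3). Adipocyte markers (8 of 8 genes found) summed to 22256 to 23860.5 normalised reads per library at day -2 and 628143 to 703389 at day 7 in DMSO, and to 860187 to 881922 at day 7 in ML-792, with no overlap between the treatments. Markers of pre-adipocytes or fibroblasts (7 of 7 found) summed to 276988 to 335842 at day -2 and 25436 to 37846 at day 7 in DMSO, and to 44343 to 63635 at day 7 in ML-792. For other cell types, Ptprc of leukocytes and Epcam of epithelium had 0 reads in all libraries, and the summed markers were at most 153 for macrophages (5 genes), 20.6 for endothelium (4 genes), 485 for epithelium (5 genes, led by Krt14) and 544 for skeletal muscle (5 genes, led by Des), the latter 2 at day 7. In bulk RNA, fewer cells of a type and less RNA per cell cannot be told apart, and the part of this change of cell state in the values below was not tested.

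The first question was how the p53 targets moved while untreated cells differentiated. In total reads, 7 of the 10 genes differed from day -2 on at least 1 day at adjusted p under 0.01, and 50.2% of all 13274 genes tested did. They did not move together. Btg2 and Bbc3 fell steeply on day 1, Bax, Ccng1 and Phlda3 were lower on day 3, and Cdkn1a and Trp53inp1 were higher on day 7. Mdm2, Gdf15 and Sesn2 did not pass against day -2 on any day in the reported edgeR tests. Without replicate A of every condition, Btg2 and Bbc3 alone were called (2 of 10). Without replicate C they were Btg2, Bbc3, Bax and Trp53inp1 (4 of 10). Over all genes, 17.1%, 36.5% and 38.6% were called on days 1, 3 and 7 with all replicates. Without A the shares were 4.06%, 18.3% and 20.8%, and without C 6.47%, 21.6% and 25.5%. Values are read counts scaled to the mean effective library size, given for replicates A, B and C in that order, and tests are edgeR's quasi-likelihood test with Benjamini-Hochberg adjustment over all entries.

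Cdkn1a and Btg2 both restrain proliferation, and on day 7 they differed from day -2 in opposite directions. Total reads of Cdkn1a in DMSO were 12235, 6715 and 13804 at day -2, 8241, 4816 and 7980.4 at day 1, 14594, 8936 and 16953 at day 3 and 24678, 19462 and 25813 at day 7. The day 7 libraries all lay above those of day -2, while days 1 and 3 overlapped with day -2, and replicate B was the lowest of the 3 at every day. Cdkn1a rose by 1.09 ± 0.29 (SE) on the log2 scale from day -2 to day 7, a 2.14-fold difference (edgeR adjusted p = 0.00637). Btg2 encodes an antiproliferative protein that promotes mRNA deadenylation and is an immediate early gene as well as a p53 target. Its total reads were 7138, 9655 and 7867 at day -2, 846, 1016 and 732 at day 1, 1969, 2893 and 3014 at day 3 and 1948, 1682 and 2170.2 at day 7. Every library after induction was below every day -2 library. Btg2 was 9.51-fold lower on day 1 (log2 -3.25 ± 0.22 (SE), edgeR adjusted p = 7.97e-08), rose again by 1.60 from day 1 to day 3 (adjusted p = 2.47e-05), and stood at -2.09 against day -2 on day 7. Without replicate A or replicate C of every condition, the Cdkn1a difference no longer passed (edgeR adjusted p = 0.0664 and 0.0258).

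Of the genes of the feedback on p53, Ccng1 was lower on day 3 and Mdm2 did not pass the test. By mean raw total reads over all libraries, Mdm2 ranked 14 among the 26995 gene symbols, at 46677. Total reads of Mdm2 were 44906, 49176 and 33842 at day -2, 34559.7, 36990.4 and 28261 at day 1, 54019, 68242 and 36561 at day 3 and 42153, 69259.8 and 37975 at day 7. Days 1, 3 and 7 each overlapped with day -2, and replicate C was the lowest of the 3 at each of them. The log2 differences of Mdm2 from day -2 were -0.36, 0.31 and 0.22 on days 1, 3 and 7, with a 95% interval on day 7 of -0.29 to 0.73. Ccng1, cyclin G1, works with a phosphatase that activates Mdm2. Its total reads went from 2711 to 4721 at day -2 to 1564 to 2354 at day 3 without overlap, and were back at 2494 to 2819.7 at day 7, where they overlapped with day -2. The day 3 difference was -0.89 ± 0.24 (SE) (edgeR adjusted p = 0.00706, 0.0688 without replicate A and 0.0439 without replicate C).

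The apoptosis genes followed separate courses. Bax, which permeabilises the outer mitochondrial membrane, had 324, 448 and 326 reads at day -2, and went down to 165, 214 and 158 at day 3 and 115, 149 and 158 at day 7, with no overlap of either day with day -2. The log2 differences were -1.03 and -1.38 (edgeR adjusted p = 0.00392 and 3.99e-04). Bbc3 encodes PUMA, a BH3-only protein that frees Bax from its inhibitors. Its reads were 400.5, 647 and 424 at day -2, 98.3, 165 and 94.3 at day 1, 325, 419.9 and 374 at day 3 and 479.9, 563 and 328 at day 7. Day 1 stood apart below all other days, which overlapped among themselves. Bbc3 fell by 2.04 on the log2 scale from day -2 to day 1 (edgeR adjusted p = 7.95e-05) and rose by 1.65 from day 1 to day 3 (adjusted p = 3.36e-04). Trp53inp1, a stress-induced nuclear protein that also acts in autophagy, had 2193, 2156 and 2026 at day -2, 1764, 1340.5 and 1794 at day 1, 3952, 3231 and 2564 at day 3 and 4955, 3938 and 5259 at day 7. Day 7 lay above day -2 in all libraries. Trp53inp1 rose by 0.99 from day 1 to day 3 (edgeR adjusted p = 9.62e-04) and was 2.22-fold higher on day 7 than on day -2 (adjusted p = 1.45e-04). Without replicate A, adjusted p was 0.0398 and 0.0127 for Bax, 0.0185 for the return of Bbc3, and 0.0588 and 0.0107 for Trp53inp1, in the order given. Without replicate C, it was 0.0497 for Bax on day 3 and 0.0108 for the return of Bbc3.

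Phlda3, which competes with Akt for membrane lipids, was the only other gene called against day -2. Its total reads in DMSO were 1932 to 2749.8 at day -2, 2366 to 3242 at day 1, 1379 to 1702 at day 3 and 1139 to 1261 at day 7. The last 2 days lay below the first pair without overlap. The log2 differences from day -2 were -0.64 on day 3 and -0.97 on day 7 (edgeR adjusted p = 0.00842 and 3.72e-04), and -0.92 from day 1 to day 3 (adjusted p = 9.90e-04). Gdf15 encodes a secreted stress cytokine and Sesn2 a leucine sensor upstream of mTORC1, and both are also induced by the integrated stress response. Gdf15 had 68.1 to 97.5 reads at day -2, 113 to 169 at day 1 and 50.7 to 70.5 at day 3. It fell by 1.18 on the log2 scale from day 1 to day 3, with no overlap (edgeR adjusted p = 0.00703). Sesn2 ranged from 112 to 198 at day 1 to 191 to 436 at day 3, and its day 7 libraries were all below day -2 at a log2 difference of -0.90 that did not pass (edgeR adjusted p = 0.0328, 0.00235 without replicate B and 0.00738 with no filter on low counts). The calls of Phlda3 on days 3 and 7 and of Gdf15 were lost without replicate A (edgeR adjusted p = 0.150, 0.0343 and 0.0705) and without replicate C (0.0703, 0.0151 and 0.0518), as was the step of Phlda3 from day 1 to day 3 (0.0703 and 0.0190). Gdf15 also missed without replicate B (0.0237).

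**Figure D1:**
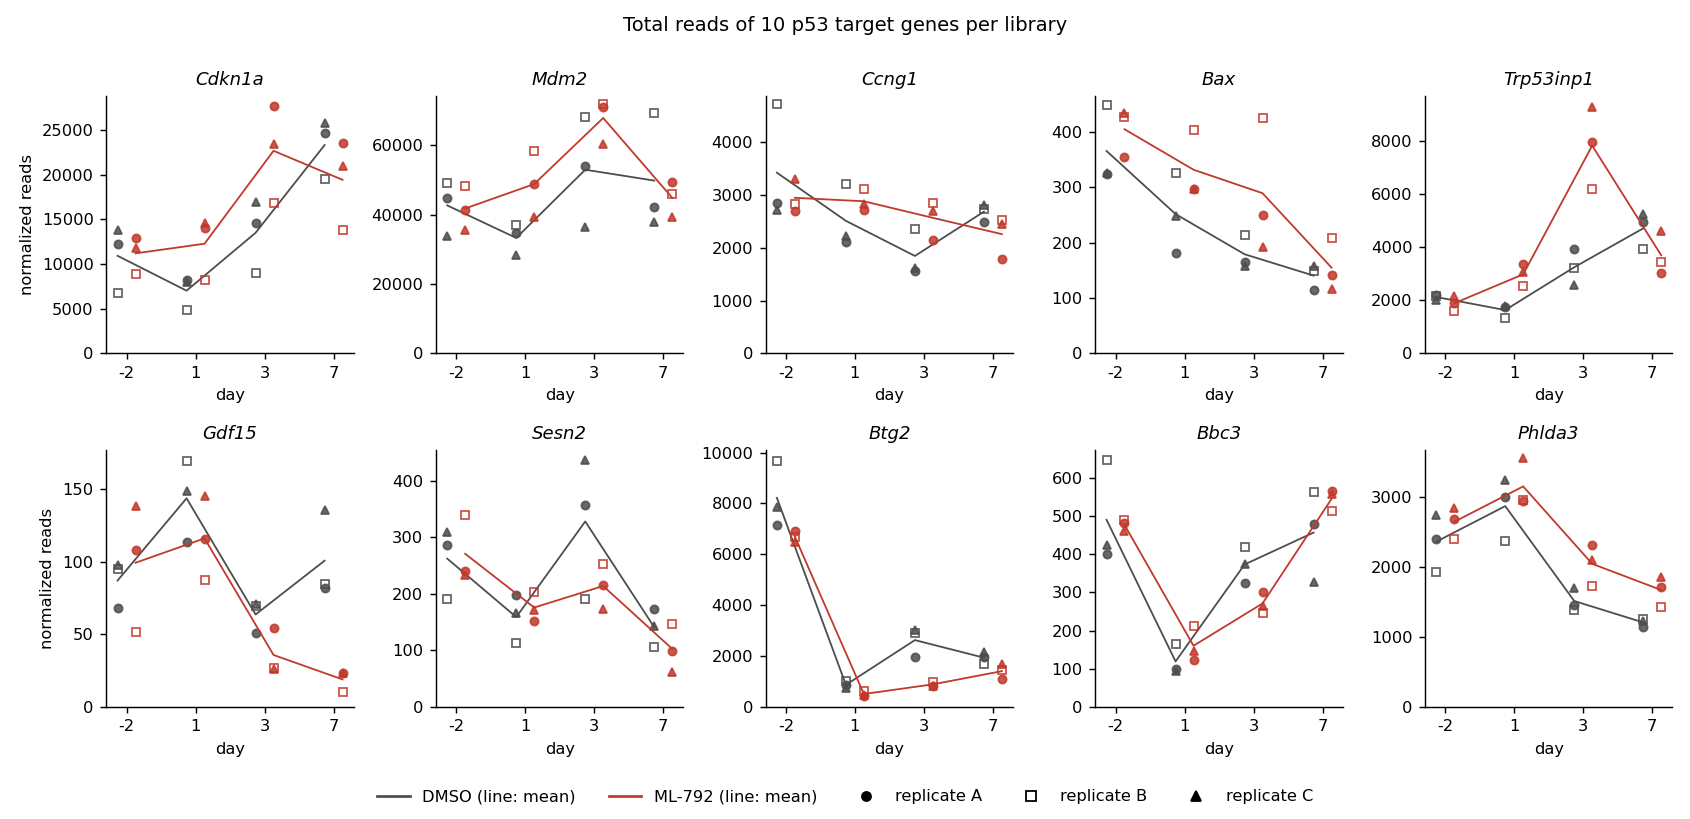
Total reads of the 10 p53 target genes by day, in normalised read counts on linear axes from 0, with 1 symbol per library shaped by replicate letter and lines through the means of the 3 replicates in DMSO (grey) and ML-792 (red). Btg2 and Bbc3 dip at day 1, Trp53inp1 in ML-792 peaks at day 3 with 7991, 6220.0 and 9311 reads, and Gdf15 in ML-792 is lowest at day 7.

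Set beside all genes tested, 2 of the 10 genes were called on day 1 against 17.1% of all genes, 4 on day 3 against 36.5%, and 5 on day 7 against 38.6%. The counts on days 1 and 3 were near those shares. From day 1 to day 3, 5 of the 10 genes were called beside 23.3% of all genes. Bbc3, Btg2 and Trp53inp1 rose, and Phlda3 and Gdf15 fell. Cdkn1a and Sesn2 were higher by 0.94 and 1.05 but did not pass (edgeR adjusted p = 0.0233 and 0.0219). DESeq2 called both (adjusted p = 0.00938 and 0.00807), and 7 of the 10 beside 28.9% of all genes. Both also passed in edgeR with no filter on low counts, with the letters as a block and without replicate B. Mdm2, higher by 0.67, passed with no filter and with the block. The median of the 10 genes in that step was 0.81, beside 0.0048 over all genes. From day 3 to day 7 none was called in the reported edgeR tests at adjusted p under 0.01, beside 10.9% of all genes. Fitted over all 24 libraries, edgeR called Sesn2 (adjusted p = 0.00684). With no filter on low counts it called Sesn2 and Cdkn1a (edgeR adjusted p = 3.96e-04 and 0.00263). With the replicate letters as a block it called Sesn2, Cdkn1a and Ccng1 (edgeR adjusted p = 3.72e-04, 2.18e-04 and 0.00685), and these genes also passed without replicate B. At an unadjusted p under 0.05 there were 6, and DESeq2 called 1, Sesn2. Cdkn1a, Ccng1 and Gdf15 lay higher and Phlda3 and Sesn2 lower on day 7 without overlap. The median log2 difference of the 10 genes from day -2 was -0.49, -0.42 and -0.23 on days 1, 3 and 7, beside 0.04, 0.07 and 0.01 over all genes tested.

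In labelled reads, most of the genes were lower after induction. In DMSO, 7 of the 9 genes tested differed from day -2 on at least 1 day, all of them downwards, while 43.5% of all 6214 genes tested were called. On day 1, 6 genes fell, Cdkn1a, Mdm2, Ccng1, Btg2, Bbc3 and Sesn2, beside 18.5% of all genes called lower and 19.1% called in either direction. On day 3 it was again 6, with Phlda3 in place of Sesn2, beside 31.4% lower and 33.6% in all, and on day 7 it was 5, Mdm2, Ccng1, Btg2, Bbc3 and Phlda3, beside 28.2% and 30.3%. Labelled reads were scaled by the total reads of their library, so the fall in labelling after day -2 is part of each value, and the median log2 difference over all genes was -1.16, -1.57 and -1.44 on days 1, 3 and 7. The medians of the 9 genes were -2.41, -2.34 and -2.08. Sesn2 and Gdf15 had at most 8 raw labelled reads in any library after day -2, while the filter's minimum count was 10. They passed the filter only through day -2, where they were highest, so a fall from that day was favoured by the filter. Both are in the 9 genes and their medians, and Sesn2 is among the 7 called.

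Labelled reads of Cdkn1a in DMSO were 823, 300.4 and 850.4 at day -2, 156, 93.5 and 120.4 at day 1, 337, 173 and 300.3 at day 3 and 410.2, 340.4 and 416 at day 7. Day 1 was lowest in all 3 replicates and day 7 overlapped with day -2, in contrast with the total reads of Cdkn1a, which were highest at day 7. The overlap came from replicate B at day -2. Without replicate B, labelled Cdkn1a was called lower on day 7 at -1.02 (edgeR adjusted p = 3.45e-04), and with all replicates the difference was -0.76. Labelled Cdkn1a was 5.33-fold lower on day 1 (log2 -2.41 ± 0.35 (SE), edgeR adjusted p = 5.78e-07). Labelled reads of Mdm2 were 3658, 3047 and 2467 at day -2, 729, 892 and 604 at day 1, 1053, 1003 and 629.8 at day 3 and 885, 1283 and 754 at day 7. All libraries after induction were below all those at day -2, at log2 differences of -2.04, -1.77 and -1.65 (edgeR adjusted p = 1.59e-07, 1.38e-06 and 4.76e-06), while its total reads did not pass. Labelled Btg2 went from 1424, 1805 and 1481 at day -2 to 51.5, 68.3 and 36.2 at day 1, a 30.1-fold difference that was the largest of the 9 genes on that day (log2 -4.91 ± 0.35 (SE), edgeR adjusted p = 7.49e-16). It was the only gene of the 9 called in the reported edgeR tests between days 1 and 3, beside 3.65% of all genes. The rise of Btg2 was 1.69 (edgeR adjusted p = 1.46e-04, 0.0123 without replicate A and 0.0526 without replicate C). Phlda3 was lower in that step without overlap at a log2 difference of -1.56 that did not pass (edgeR adjusted p = 0.0168), and DESeq2 called it (adjusted p = 0.00986), as did edgeR over all 24 libraries (0.00842) and without replicate B (0.00718). Without replicate B, Cdkn1a and Trp53inp1 also passed there, at 1.21 and 0.94 (edgeR adjusted p = 2.24e-04 and 0.00718). From day 3 to day 7 no gene of the 9 was called in edgeR (1 at an unadjusted p under 0.05, Gdf15, and none in DESeq2), beside 0.354% of all genes.

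Bbc3, Ccng1 and Sesn2 had few labelled reads. Raw labelled counts of Bbc3 were 120, 109 and 69 at day -2 and 3, 18 and 8 at day 1, those of Ccng1 were 70, 70 and 63 and 17, 9 and 21, and those of Sesn2 were 39, 15 and 26 and 0, 3 and 4. In each gene, all day 1 libraries were below all day -2 libraries. The log2 differences were -3.27, -2.04 and -3.37 (edgeR adjusted p = 8.38e-06, 0.00270 and 0.00471). Phlda3 was called on days 3 and 7, at -2.57 and -2.32. Trp53inp1 and Gdf15 were the genes of the 9 called on no day in the reported edgeR tests. Labelled reads of Trp53inp1 were 310.0, 199 and 283 at day -2, 231, 109 and 236 at day 1, 498, 231 and 396 at day 3 and 591, 205 and 587 at day 7. Every day overlapped with day -2. Its log2 differences were -0.46, 0.51 and 0.80 (edgeR adjusted p = 0.307, 0.218 and 0.0556). Gdf15 had at most 24 raw labelled reads in a DMSO library. DESeq2 called Gdf15 lower on day 3 (adjusted p = 0.00817). Without replicate B, edgeR called Gdf15 lower on day 1 and Trp53inp1 higher on day 7 at 0.99 (adjusted p = 0.00954 and 6.33e-04). Bax had at most 8 raw labelled reads in a DMSO library, and it had 0 of 384 reads labelled over the 3 libraries of day 7, which allows a share of up to 0.781%. The call of Ccng1 on day 1 was lost without any 1 of the replicates (edgeR adjusted p = 0.0459, 0.0142 and 0.0182 without A, B and C), and that of Sesn2 without A or C (0.173 and 0.0249). Of the later calls, those of Cdkn1a on day 3 (0.0350), Bbc3 on days 3 and 7 (0.0286 and 0.0106), Ccng1 on day 7 (0.0172) and Phlda3 on day 7 (0.0123) were lost without A, and Cdkn1a on day 3 (0.0558), Bbc3 on day 7 (0.0155) and Ccng1 on day 7 (0.0174) without C.

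These falls are relative to the total reads, and the scale matters for them. When each library's own labelled reads served for scaling instead, the median over all genes moved to -0.09, -0.23 and -0.22 on days 1, 3 and 7. On that scale Btg2 kept its call on all 3 days, and Cdkn1a, Mdm2 and Bbc3 kept theirs on day 1. The day 3 difference of Cdkn1a shrank from -1.28 to -0.05, that of Mdm2 from -1.77 to -0.57, and neither passed (edgeR adjusted p = 0.915 and 0.110). Trp53inp1 was higher by 1.70 on day 3 and 1.92 on day 7 (edgeR adjusted p = 1.47e-04 and 2.47e-05), and the calls of Phlda3 on both days and of Sesn2 and Ccng1 on day 1 were lost (adjusted p = 0.0119, 0.0258, 0.0998 and 0.169). Mdm2 and Ccng1 also lost their calls on day 7, and Bbc3 on days 3 and 7.

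**Figure D2:**
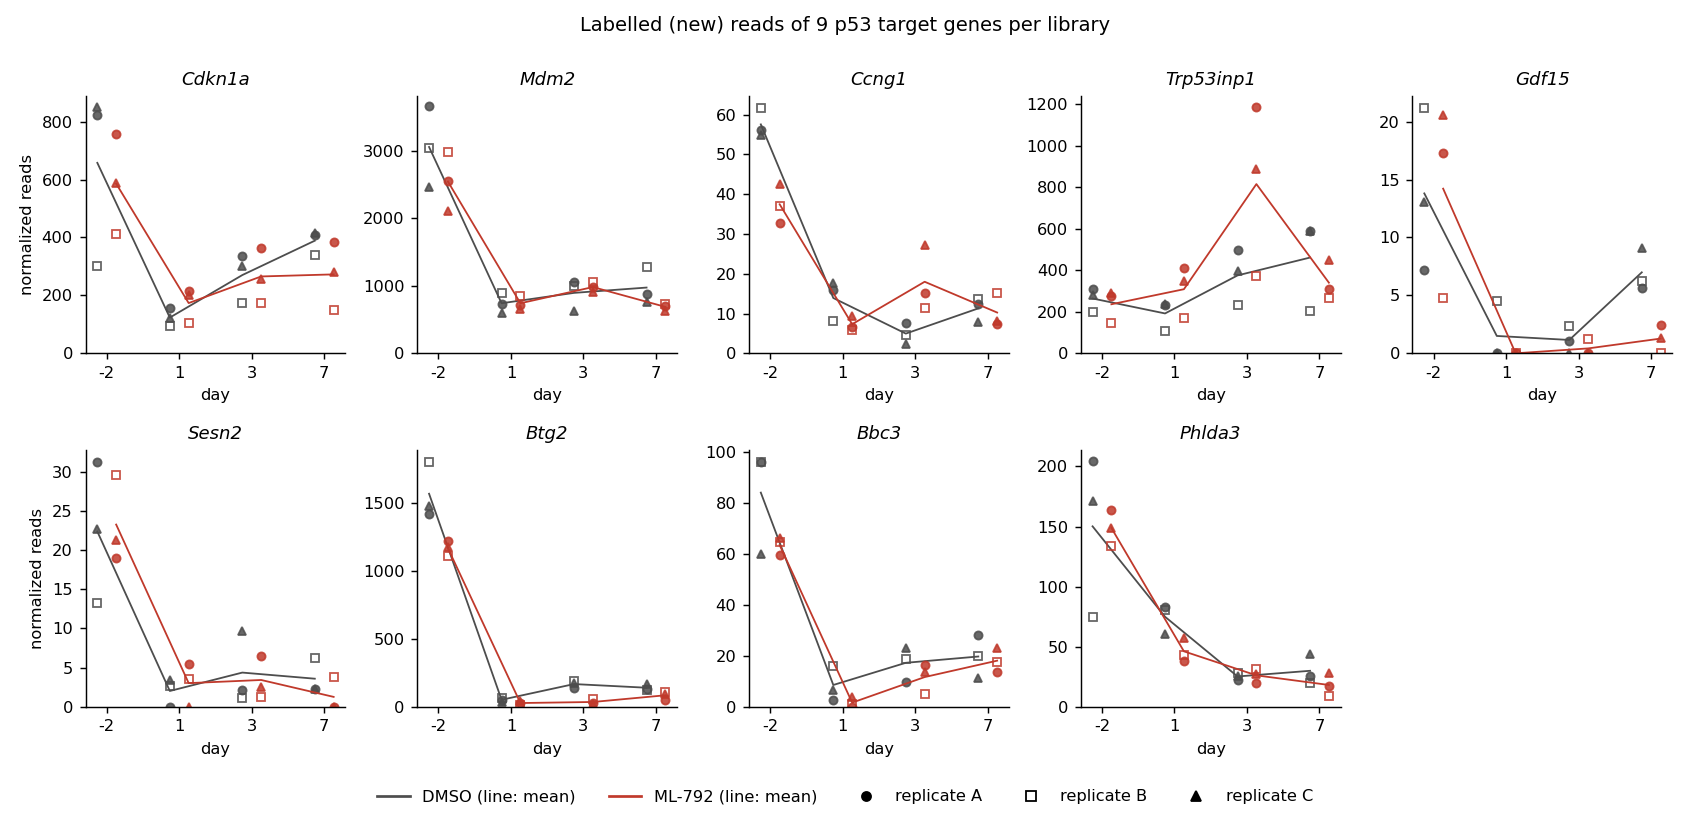
Labelled reads of 9 p53 target genes by day, without Bax, in read counts scaled by the total reads of each library on linear axes from 0, with 1 symbol per library shaped by replicate letter and lines through the means of DMSO (grey) and ML-792 (red). Cdkn1a, Mdm2, Ccng1, Btg2, Bbc3 and Sesn2 are lower at day 1 than at day -2 in all DMSO libraries, and Trp53inp1 overlaps between all 4 days.

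The share of a gene's reads that were labelled puts both measures together. A higher share is read as a larger part of the transcript pool made within the pulse. It depends on turnover, on the number of T bases read and on conversions of other origin. No library without 4-thiouridine was analysed here, so the share of conversions without label is unknown. At day -2 in DMSO, Btg2 had 19.2 ± 0.691% labelled reads and Trp53inp1 12.4 ± 2.78%, against a median of 2.28% over 6627 genes with at least 1000 reads over the 3 libraries, which put them at percentiles 99.0 and 97.1 (SD, n = 3). Mdm2 stood at 7.21 ± 0.978%, Cdkn1a at 5.79 ± 1.17% and Phlda3 at 6.20 ± 2.31%, all above that median, while Ccng1 at 1.77 ± 0.399% was below it. By day 7 the median had gone to 0.813%, and the share of Cdkn1a to 1.67 ± 0.0689%, of Mdm2 to 1.98 ± 0.123% and of Btg2 to 7.28 ± 0.610%. Trp53inp1 kept shares of 11.5 ± 2.89%, 11.7 ± 4.23% and 9.43 ± 3.68% on days 1, 3 and 7, at percentiles 99.5, 99.6 and 99.2. Replicate B gave the lowest share of Trp53inp1 in each of the 8 conditions, 5.21 to 9.24%, while A and C gave 9.54 to 15.5%. The part of conversions without label in the labelled reads of Trp53inp1 was not tested.

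**Figure D3:**
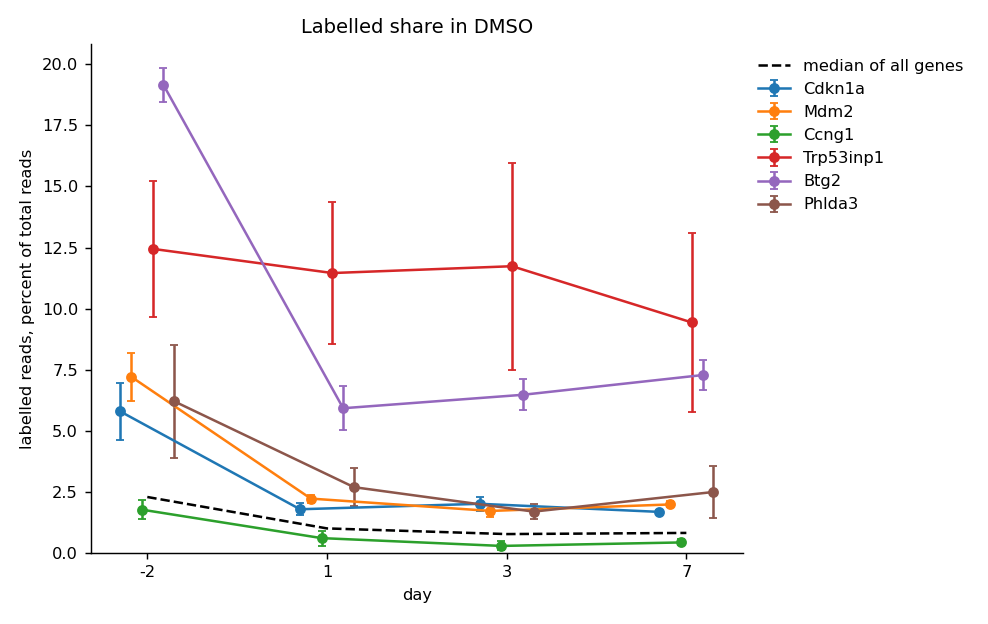
Labelled reads as a percentage of total reads in DMSO by day for Cdkn1a, Mdm2, Ccng1, Trp53inp1, Btg2 and Phlda3, as the mean with SD bars over 3 replicates, and a dashed line for the median of all genes with at least 1000 reads. Btg2, Cdkn1a and Mdm2 drop with the median after day -2, and Trp53inp1 goes from 12.4 ± 2.78% to 9.43 ± 3.68%.

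The second question was whether blocking SUMO attachment changed these genes. In total reads, ML-792 moved 4 of the 10 genes on at least 1 day at adjusted p under 0.1, beside 25% of all genes: Btg2 and Gdf15 were lower, and Trp53inp1 and Phlda3 were higher. Each was called on some days and not on others, and none of the 10, nor any other gene tested, was called at day -2 (0% of all genes, and none of the 10 at an unadjusted p under 0.05 in edgeR or called in DESeq2), where the log2 differences of the 10 genes lay between -0.30 and 0.19. The counts were 2 of 10 on day 1, beside 7.9% of all genes, 2 on day 3, beside 15.6%, and 2 on day 7, beside 11.8%. For 3 of the 10 genes, Btg2, Gdf15 and Trp53inp1, the size of the ML-792 difference itself depended on the day (F-test of the interaction of day and treatment, edgeR adjusted p = 0.0112, 0.0131 and 4.91e-04), beside 12% of all genes.

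Btg2 had the most persistent difference. Its total reads in ML-792 were 6912, 6680.1 and 6496 at day -2, 424, 607 and 480.2 at day 1, 831, 992 and 831 at day 3 and 1089, 1444 and 1681 at day 7. They were below the DMSO libraries of the same day without overlap on all 4 days. The log2 differences were -0.78 ± 0.19 (SE) on day 1 and -1.57 ± 0.19 (SE) on day 3 (edgeR adjusted p = 0.0153 and 4.10e-06), a 2.97-fold lower level on day 3. At days -2 and 7 they were -0.30 and -0.46 and did not pass (adjusted p = 1.00 and 0.176). In ML-792 the day 3 libraries, at 831 to 992, lay above those of day 1, at 424 to 607, and within the range that DMSO had at day 1, 732 to 1016. Without replicate A or C, the day 1 difference of Btg2 did not pass (0.265 and 0.150), nor did its interaction (0.145 and 0.429), all as edgeR adjusted p, while day 3 passed in every setting tried.

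Trp53inp1 went the other way. Its total reads in ML-792 were 1903, 1591 and 2169 at day -2, 3359.8, 2528 and 3058 at day 1, 7991, 6220.0 and 9311 at day 3 and 3041, 3439.7 and 4623 at day 7. On days 1 and 3 all ML-792 libraries lay above all DMSO libraries, and on day 7 the groups overlapped with the ML-792 mean the lower of the 2. The log2 differences were 0.87 ± 0.20 (SE) on day 1, 1.27 ± 0.20 (SE) on day 3 and -0.35 ± 0.20 (SE) on day 7 (edgeR adjusted p = 0.00768, 8.21e-05 and 0.370). In DMSO the gene was at its highest on day 7, and in ML-792 on day 3, at 2.41 times the DMSO level of that day. Without replicate A, adjusted p was 0.240 on day 1 and 0.118 for the interaction, and day 3 passed in every setting tried.

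Gdf15 and Phlda3 differed late. Total reads of Gdf15 in ML-792 were 108, 51.5 and 138 at day -2, 115, 87.1 and 145 at day 1, 54.4, 26.6 and 26.1 at day 3 and 23.3, 10.2 and 23.1 at day 7. At day 7 they stood below all DMSO libraries of that day, which had 82.0, 84.3 and 135, and on days -2, 1 and 3 the groups overlapped. The day 7 difference was 5.31-fold lower (log2 -2.41 ± 0.41 (SE), edgeR adjusted p = 3.68e-04), from raw counts of 19, 8 and 17 against 73, 81 and 119, and it passed in every setting tried. Its interaction with day was lost without replicate A or C (edgeR adjusted p = 0.258 and 0.387). Phlda3 was higher in ML-792 on day 7, 1721, 1432 and 1861 against 1139, 1261 and 1223, with no overlap. The log2 difference of 0.47 ± 0.16 (SE) was just inside the threshold (edgeR adjusted p = 0.0907) and missed it in 6 of 10 other settings, among them without replicate A (0.565) and without replicate C (0.506), and its day 3 difference of 0.43 was just outside (adjusted p = 0.102).

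Cdkn1a and Mdm2 are often read as reporters of p53, a use that was not tested in these cells. Neither passed in the reported edgeR tests, but both did in some other settings. With the replicate letters fitted as a block, edgeR called Cdkn1a higher on days 1 and 3 (adjusted p = 2.40e-05 and 2.20e-05). That fit also called Mdm2 higher on both days (edgeR adjusted p = 0.00470 and 0.0308). Total reads of Cdkn1a in ML-792 were 12864, 8921 and 11787 at day -2, 13989, 8177 and 14641 at day 1, 27656, 16875 and 23490.0 at day 3 and 23565, 13776 and 20932 at day 7. On day 1 the lowest of them, replicate B, lay just under the highest DMSO library (8241), and on day 3 replicate B again overlapped with DMSO. The log2 differences of Cdkn1a were 0.81 ± 0.30 (SE), 0.75 ± 0.30 (SE) and -0.26 ± 0.29 (SE) on days 1, 3 and 7 (edgeR adjusted p = 0.153, 0.129 and 0.727), with 95% intervals of 0.23 to 1.39, 0.17 to 1.33 and -0.84 to 0.31 before adjustment. Total reads of Mdm2 in ML-792 were 41292, 48297 and 35676 at day -2, 48766, 58372 and 39259.9 at day 1, 71141, 71974 and 60450.5 at day 3 and 49365, 45971 and 39224 at day 7. On day 1 these were above all DMSO libraries, and on the other days the groups overlapped. Its log2 differences were 0.55, 0.36 and -0.15 (edgeR adjusted p = 0.229, 0.436 and 0.817). DESeq2 called Cdkn1a on days 1 and 3 (adjusted p = 0.0848 and 0.0756), as did edgeR with no filter on low counts (0.00257 and 0.00435) and, on day 3, edgeR with 1 entry per gene (0.0833). Without replicate B, the differences of Cdkn1a were 0.82 and 0.70 on days 1 and 3 and both passed (edgeR adjusted p = 1.96e-04 and 5.55e-04), as did Mdm2 on day 3 at 0.54 (adjusted p = 0.0770).

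The remaining genes, Ccng1, Bax, Bbc3 and Sesn2, were called on no day in the reported edgeR tests. In total reads their log2 differences between ML-792 and DMSO lay between -0.62 for Sesn2 on day 3 and 0.69 for Bax on day 3 (edgeR adjusted p = 0.269 and 0.132). Ccng1 had 0.48 on day 3 (adjusted p = 0.192), and Bbc3 -0.46 on day 3, where its ML-792 libraries were all below DMSO (adjusted p = 0.291). DESeq2 called Bax higher on day 3 at 0.72 (adjusted p = 0.0927). With the replicate letters as a block, edgeR called Bax and Ccng1 higher on day 3 (adjusted p = 0.0151 and 0.0160). Without replicate B, Sesn2 was called lower on days 3 and 7 at -1.03 and -0.97 (edgeR adjusted p = 0.00289 and 0.0131) and Ccng1 higher on day 3 at 0.61 (adjusted p = 0.00982). That makes 8 of the 10 genes called on at least 1 day without replicate B in place of 4. The share of all genes called went from 7.9%, 15.6% and 11.8% on days 1, 3 and 7 to 9.7%, 19.1% and 15.2%. The share called on at least 1 day was 25% with all replicates and was not computed without B. The median log2 difference of the 10 genes was 0.30, 0.40 and -0.26 on days 1, 3 and 7, while the medians over all genes were within 0.01 of 0.

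**Figure D4:**
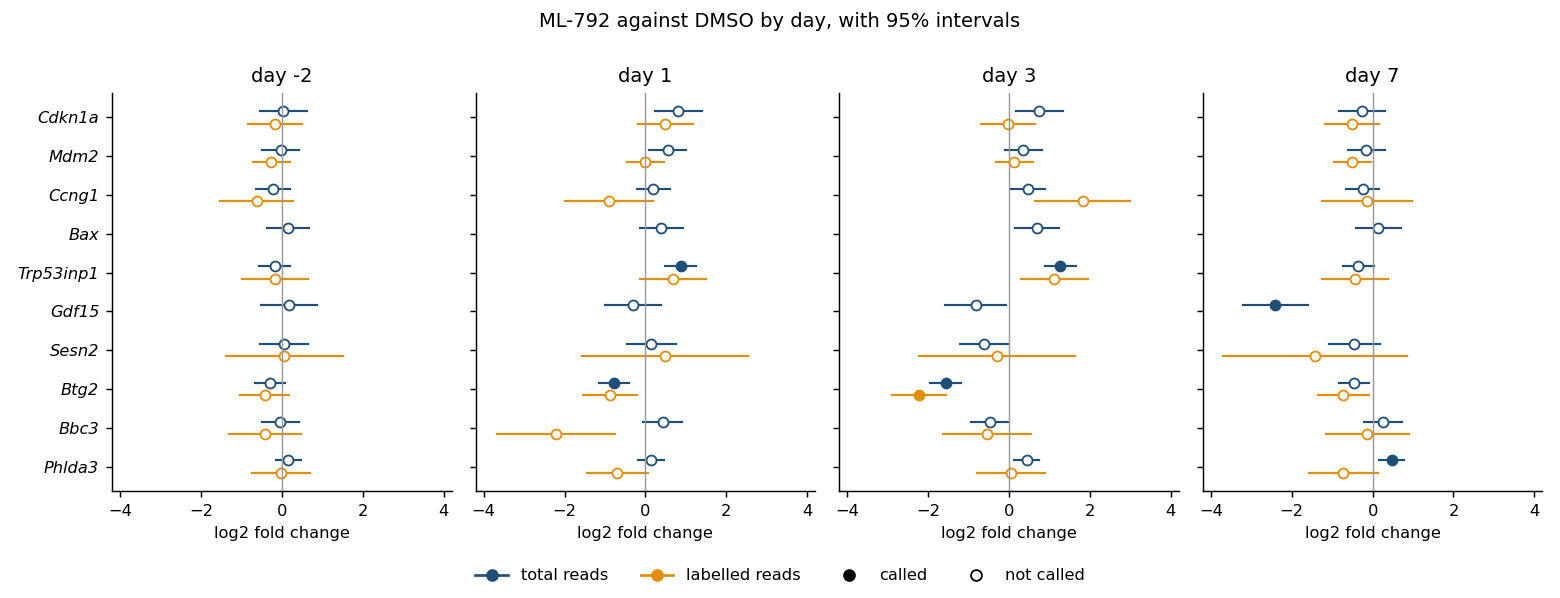
Log2 difference between ML-792 and DMSO at each day for the 10 genes, with 95% confidence intervals unadjusted for the number of genes, in total and labelled reads, and filled points for those called at adjusted p under 0.1. Btg2 lies below 0 at every day and reaches -1.57 in total reads at day 3, Trp53inp1 reaches 1.27 at day 3, and Gdf15 drops to -2.41 at day 7. Labelled reads of Gdf15 are not drawn, and those of Bax were not tested.

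In labelled reads, Btg2 on day 3 was the only one of the 9 genes called in the reported edgeR tests. Beside it, 1.17% of all genes were called on that day and 2.75% on any day. None of the 9 was called at day -2, 1 or 7 in the reported edgeR tests or DESeq2, beside 0%, 1.01% and 0.982% of all genes in edgeR. Without replicate B, Btg2 passed on day 7 at -1.04 (edgeR adjusted p = 0.0737). At an unadjusted p under 0.05, edgeR had none at day -2, Bbc3 and Btg2 at day 1, and Mdm2 and Btg2 at day 7, and all of these were lower in ML-792. Labelled Btg2 at day 3 was 30.5, 57.1 and 19.9 in ML-792 against 139, 189 and 175 in DMSO, from raw counts of 28, 45 and 16 against 126, 161 and 144. The groups did not overlap, and the level was 4.69-fold lower (log2 -2.23 ± 0.34 (SE), edgeR adjusted p = 5.21e-05), a call that every setting tried kept. For Trp53inp1, labelled reads at day 3 were 1185, 372 and 889 against 498, 231 and 396. The lowest of the ML-792 libraries and the lowest of DMSO were both replicate B. The log2 difference of 1.12 ± 0.42 (SE) did not pass (edgeR adjusted p = 0.297, 0.00317 without replicate B). It also passed in edgeR with at least 10 reads summed (adjusted p = 0.0444), no filter on low counts (0.0845), only the libraries of that day (0.00337) and the letters as a block (0.00301). Labelled Cdkn1a and Mdm2 differed by -0.02 and 0.13 on day 3 (95% intervals -0.70 to 0.65 and -0.33 to 0.59). Ccng1 was higher on day 3 without overlap, but on raw counts of 14, 9 and 22 against 7, 4 and 2 (log2 1.82 ± 0.59 (SE), edgeR adjusted p = 0.185). DESeq2 called it there (adjusted p = 0.0774). Gdf15 had 0 of 333 reads labelled in ML-792 at day 1, which allows a share of up to 0.901%, and Bax 0 of 721 at day 3, which allows up to 0.416%. In the interaction of day and treatment, no gene of the 9 passed in labelled reads in the reported edgeR test, beside 0.29% of all genes. At an unadjusted p under 0.05 there were 3 in edgeR, Btg2, Ccng1 and Trp53inp1, and DESeq2 called 1, Ccng1.

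Some of these genes were lowest in the same replicate in all conditions. Cdkn1a was lowest in replicate B in 8 of 8 conditions, in total and in labelled reads, at 0.516 to 0.771 times the mean of A and C in total reads. Mdm2 was lowest in replicate C in 8 of 8 conditions by both measures, and labelled Trp53inp1 was lowest in replicate B in 8 of 8. Among all genes tested, 1 letter was lowest in every condition for 9.51% in total reads and 1.92% in labelled reads. Trp53, the gene of p53, was lowest in replicate B in 7 of 8 conditions in total reads. Whether the letters mark cultures grown side by side was not given in the sources used here.

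Other genes of the p53 pathway were read from lists drawn up by name. Of 32 further p53 targets, 29 were tested in total reads. In DMSO, 2 rose and 7 fell on day 1, 1 rose and 11 fell on day 3, and 2 rose and 13 fell on day 7, beside 17.1%, 36.5% and 38.6% of all genes called on those days in either direction. The largest falls on day 7 were those of Plk2, a polo-like kinase (-5.40), the ephrin receptor Epha2 (-4.26), Ckap2, a spindle protein (-3.32), and Eda2r, a receptor of the TNF receptor family (-3.29), with edgeR adjusted p of 4.29e-10, 5.13e-05, 3.95e-07 and 3.79e-07. Under ML-792, 4 were higher and none lower on day 1, 7 were higher and none lower on day 3, and 6 were higher and 1 lower on day 7, beside 7.9%, 15.6% and 11.8% of all genes. Plk2 and Epha2 were higher on day 3 by 1.93 and 2.09, and Tap1, a peptide transporter of antigen presentation, was higher by 0.74, 1.04 and 1.30 on days 1, 3 and 7 (edgeR adjusted p = 7.41e-07, 0.0349, 0.0361, 0.00271 and 2.50e-04). The death receptor Fas and Sesn1, a relative of Sesn2, were higher on day 7 (1.17 and 1.29), and Slc19a2, a thiamine transporter, was lower (-1.53). The median of this list under ML-792 was 0.30, 0.16 and 0.11 on days 1, 3 and 7. In labelled reads, 20 of the list were tested, and in DMSO 6, 9 and 12 of them fell on days 1, 3 and 7 and none rose, beside 19.1%, 33.6% and 30.3% of all genes called. Under ML-792, edgeR called none of the 20 on days 1, 3 and 7 (5, 5 and 7 at an unadjusted p under 0.05), and DESeq2 called 1, on day 7, beside 1.01%, 1.17% and 0.982% of all genes in edgeR.

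Trp53 itself had 452 ± 201 (SD, n = 3) total reads in DMSO at day -2 and 203 ± 27.0 (SD, n = 3) at day 7, with all day 7 libraries below all those of day -2. The log2 difference of -1.15 did not pass at adjusted p under 0.01 (edgeR adjusted p = 0.0164), and ML-792 left differences of 0.31, 0.46 and 0.27 on days 1, 3 and 7 that did not pass. Mdm4, the partner of Mdm2 that binds and inhibits p53, was not called in any comparison of total reads against day -2 or between treatments, at -0.46 on day 7 and -0.25 under ML-792 on day 3. Among 19 regulators of p53 tested in total reads, none was called on day 1 in DMSO by edgeR or DESeq2 (4 at an unadjusted p under 0.05 in edgeR), beside 17.1% of all genes. On days 3 and 7 edgeR called 5 and 6, beside 36.5% and 38.6%, and 2, 4 and 1 under ML-792 on days 1, 3 and 7, beside 7.9%, 15.6% and 11.8%. The kinase gene Hipk2 was higher by 3.77 on day 3 and 3.63 on day 7 (edgeR adjusted p = 1.90e-09 and 2.20e-09), and Cdkn2a, which encodes the Mdm2 inhibitor Arf along with the kinase inhibitor p16, was lower on both days (-1.34 and -1.41). Under ML-792, Trp53bp1 was lower on days 1 and 3 (-0.56 and -0.57), and the kinase gene Atm was higher on day 1 (0.76).

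Further lists covered processes next to the p53 pathway. Of 24 cell cycle genes that are known to be held down through p21, 17 rose and none fell on day 1 in DMSO total reads. On day 3, 2 rose and 2 fell, and on day 7, 22 fell and none rose. Beside these, 17.1%, 36.5% and 38.6% of all genes were called on days 1, 3 and 7. The part of Cdkn1a in these changes was not tested. Kif23 (-3.84) and Mki67 (-3.71) fell most on day 7. Under ML-792, edgeR called none of the 24 on day 1 (4 at an unadjusted p under 0.05, and 1 called in DESeq2), beside 7.9% of all genes. On day 3, 14 were lower and none higher (median log2 difference -0.93), beside 15.6% of all genes called. On day 7, 1 was lower, beside 11.8%. In labelled reads, where 14 were tested, 2 rose on day 1 and 8 fell on day 7 in DMSO, beside 19.1% and 30.3% of all genes, and 1 was lower under ML-792 on day 3, beside 1.17%. Of 20 targets of the stress factors ATF4 and CHOP, which share Gdf15 and Sesn2 with p53 by background knowledge although neither is in that list, 12 fell and 2 rose on day 1, beside 17.1% of all genes called, and 14 rose from day 1 to day 3 with none falling, beside 23.3%. Under ML-792, 14 of the 20 were lower and none higher on day 3, and likewise 14 on day 7 (medians -0.96 and -0.90), beside 15.6% and 11.8% of all genes called. In labelled reads, where 16 were tested, 10, 8 and 7 fell on days 1, 3 and 7 in DMSO, beside 19.1%, 33.6% and 30.3% of all genes, and 2 and 4 were lower under ML-792 on days 3 and 7, beside 1.17% and 0.982%. Trib3, an inhibitor of Akt (-2.96), and the transcription factor gene Atf3 (-2.06) had the largest differences of them on day 7, when Gdf15 was also lower (edgeR adjusted p = 3.24e-09 and 5.94e-04). The part of either list in the values of the p53 targets was not tested.

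Profiles varied among the 10 genes. Over the 24 libraries, Pearson's r of log2 total reads between pairs of them had a median of 0.03 over 45 pairs, of which 24 were above 0. It ran from -0.59 for Cdkn1a and Bax to 0.81 for Cdkn1a and Trp53inp1, with Btg2 and Bbc3 at 0.70. The genes most like Cdkn1a among 13273 others were Fntb, Tecr, Rsad1, Gamt and Atp5sl (r from 0.92 to 0.90), and those most like Mdm2 were Pmm1, Spag7, Mob4, Fgfr1op and Wdr60 (r from 0.86 to 0.83). These are descriptions over libraries that share days, treatments and replicate letters.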

How the data were processed

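Both measures came from the same 24 libraries. The authors sequenced QuantSeq 3′ mRNA libraries, demultiplexed with bcl2fastq 2.17.1.14 per the labels, mapped and filtered the reads on mm10 with SlamDunk, and took counts over RefSeq 3′UTR entries. They deposited raw read counts, all reads in one table and reads with at least 1 T-to-C conversion in another, with no normalisation. Each also holds library columns that match no sample, 6 per measure, which were not used. Samples were grouped by title, where _2 was read as day -2.

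Entries were filtered with filterByExpr (minimum count 10, minimum total 15), which left 26364 entries in total reads and 10186 in labelled reads, 13274 and 6214 genes when each was read from its top entry. Tests used edgeR 4.0.16 (glmQLFit with robust = TRUE, glmQLFTest) in R 4.3.3, with TMM factors from the total reads applied to both measures, as the authors scaled labelled reads by factors of the total reads, and Benjamini-Hochberg adjustment over all entries tested. Days were compared over the 12 DMSO libraries at adjusted p under 0.01, and ML-792 with DMSO over all 24 at adjusted p under 0.1, the study's thresholds. Only genes past these thresholds are said to have risen or fallen. Printed read counts are scaled by effective library size to its mean. Entries of one gene can hold the same reads, and reads of PCR copies were not told apart, so that limits from a count of 0 cover counting error only. The study states that the 3 replicates per condition are biological, and p-values measure the spread between them. Precision is set by 13554718 to 27013352 total and 115709 to 820046 labelled reads per library.

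The p53 target genes and all gene lists were chosen with earlier results of these data known, so counts of called genes are set beside the percentage over all genes, and no test was made of any list. Named from other lists were Trp53, Mdm4 and, per comparison, at most 4 called genes with the largest log2 difference. For Cdkn1a and Mdm2, the 5 genes with the most similar profile were named. Alternatives were DESeq2 1.42.0, filters at 10 reads summed or none, 1 entry per gene, a replicate block, each replicate left out, other samples in the fit, adjusted p under 0.05 and labelled counts scaled by labelled reads. The edgeR steps were tested on simulated data. Response elements were read from GRCm38.p6, the same assembly as mm10, with the RefSeq annotation. Protein sequences were not used here.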

Additional observations from a re-analysis of the deposited data

Results flagged for a closer look

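For 3 of the p53 target genes, the difference between ML-792 and DMSO in total reads was itself different between days in the test of the interaction. Trp53inp1 (edgeR adjusted p = 4.91e-04) went from -0.17 at day -2 to 1.27 at day 3 and back to -0.35 at day 7 on the log2 scale. Btg2 (edgeR adjusted p = 0.0112) went from -0.30 to -1.57 and -0.46 over the same days. Gdf15 (edgeR adjusted p = 0.0131) went from 0.19 at day -2 to -0.82 at day 3 and -2.41 at day 7. All 3 were lost without replicate A, and Btg2 and Gdf15 also without replicate C. The share of all genes called for the interaction was 12% with all replicates, 2.22% without A and 3.21% without C.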

How the results depend on the processing

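Of the 44 calls of single p53 target genes, 16 kept call and direction in every setting run for them, among them Btg2 and Trp53inp1 under ML-792 on day 3 and Gdf15 on day 7 in total reads. No result changed direction past a threshold. Over the DMSO time course, the number of genes called was 7 in total reads and 2 to 8 when each replicate was left out, and 7 in labelled reads and 6 to 9. For ML-792 it was 4 in total reads and 3 to 8, and 1 in labelled reads and 1 to 2. For the interaction it was 3 in total reads and 0 to 5, and 0 in labelled reads and 0 to 2. The highest counts all came without replicate B and the lowest without replicate A, tied with C for ML-792 and in labelled reads. The share of all genes called shifted too. Against day -2 in DMSO, day 3 had 36.5% in total reads, 18.3% without A and 40.9% without B. Under ML-792 on day 3 it was 15.6%, 6.1% and 19.1%, and for the interaction 12%, 2.22% and 15.6%. In labelled reads, day 3 in DMSO had 33.6%, 13.3% and 31.1%. In labelled reads, 2 genes were called under ML-792 with DESeq2, with at least 10 reads summed, with no filter on low counts and in fits of only the 6 libraries of a day, and for the interaction 1 gene with DESeq2 and 1 with at least 10 reads summed. The cause of these shifts was not tested. Low labelled counts limit Bax, Gdf15, Sesn2 and Ccng1.

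In fits with the letters as a replicate block, 8 genes were called for ML-792 in total reads and 2 in labelled reads. For the interaction they were 7 and 2, and over the DMSO time course 8 and 7. Of all genes in total reads, the block called 15.7%, 24.6% and 21.6% under ML-792 on days 1, 3 and 7. Without it these were 7.9%, 15.6% and 11.8%. For the interaction it called 24.9% in place of 12%, and in labelled reads 1.32% in place of 0.29%. On day 3, it called 2.19% in labelled reads under ML-792 in place of 1.17%. Against day -2 in DMSO, day 3 had 45.3% in total and 36.3% in labelled reads, in place of 36.5% and 33.6%. Libraries of the same letter deviated together on average in total reads, but not in every pair (mean r 0.19 over 84 pairs of conditions, lowest -0.18, highest 0.53). Of these pairs, 68 had r over 0.1, beside 21 of 168 pairs of different letters (mean r -0.095). Deviations were taken from the mean of each condition, so those of its replicates cancel. The mean r of different letters is thereby tied to that of same letters and is no separate baseline. The sources used here do not state that the letters pair the samples, so the block was kept out of the reported tests. Those tests count a level shared by a letter as spread between replicates. Without the block, 28 results of single genes that it called did not pass, and it lost none. Among them were Cdkn1a under ML-792 on days 1 and 3 (edgeR adjusted p = 2.40e-05 and 2.20e-05), Mdm2 on days 1 and 3 (0.00470 and 0.0308), and Bax and Ccng1 on day 3 (0.0151 and 0.0160), in total reads.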
